A study of Striga hermonthica with 6 samples.

Results

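Small RNA loci that lie close to another locus were described in *Striga hermonthica*, a root parasite of cereals. A close locus was a locus that ShortStack did not mark as *MIRNA*, whose gap to the nearest other locus of any kind on the same contig was 1000 nt or less, on a contig that carried 6 or more loci. The gap is the number of bases between the end of a locus and the start of the next. This rule uses positions and the *MIRNA* mark and no counts of single libraries, although the loci themselves were called from these reads, and it selected 4745 of the 25056 loci, or 18.9%. They lay on 102 of the 118 contigs that carried 6 or more loci. The 18455 other loci on those contigs without a *MIRNA* mark and with a wider gap, called other loci here, were used for comparison.

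All 6 libraries came from plants of the Kibos ecotype grown for 45 days on rice, given as KitaakeX in the labels and as Kitaake in the paper, under 16 h of light and at 30 °C. Of the 3 groups, the first held haustorium replicates 1 and 3, for which the labels give no stage. The second held haustorium replicates 1 and 2 at stage 6, and the third held leaf replicates 1 and 2 at stage 6. The haustorium is the organ by which the parasite attaches to the root of its host and draws from it. The labels neither define the stage nor tell whether the replicates of a group were taken from different plants. A p-value here refers only to the variation among these libraries, part or all of which may be technical. Haustorium samples can hold host root tissue, and these counts cover only reads placed on the *S. hermonthica* assembly.

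In plants, small RNAs are cut from double-stranded or hairpin RNA by Dicer-like enzymes and loaded onto Argonaute proteins. Loci fall into *MIRNA* genes, which release a defined duplex from a hairpin, and a much larger set of siRNA loci. Many siRNA loci lie over transposons and repeats, where RNA polymerase IV transcripts are copied and cut into short siRNAs that guide DNA methylation, and others lie over inverted repeats or over transcripts that are cut in a phased pattern. A locus in a ShortStack table is a stretch of contig around small RNA coverage. Nearby stretches of coverage can be merged before a locus is reported. A single biological source can still appear as several neighbouring loci when coverage between them is thin. Counts are given per locus and not per base, so lengths, gaps and spans here are those of the reported loci. No close locus was shorter than 401 nt, and how far reported ends lie beyond the covered bases is not given. The files give neither read lengths nor strands, so the loci were not assigned to these classes.

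The counted reads came to between 3031863 and 8381235 per library, in units of reads per locus. CPM, the count scaled to 1000000 counted reads of the library, was used for levels, and a count of 0 allows up to 3 reads, which is 0.358 to 0.989 CPM by library. Among the libraries, replicate 2 of stage 6 haustorium and replicate 1 of leaf stood apart. Their TMM factors, which correct library sizes for composition, were 1.78 and 1.74, against 0.609 to 0.979 in the other 4 libraries. Within each group the counts of the replicates differed by more than sampling noise (chi-square of 107 to 227 for each degree of freedom).

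Close loci were mostly short and weakly covered, with a tail of long and strongly covered loci. Their length ranged from 401 to 8925 nt, with a median of 424 nt against 422 nt in other loci. Loci of 800 nt or longer made up 8.01% of close loci and 2.74% of other loci. The mean CPM over the 3 group means ranged from 2.47 to 15899, with a median of 9.19 against 7.62 in other loci. Per 1000 nt of reported length, the median was 21.0 CPM for close loci (quartiles 15.0 and 30.9) and 17.9 CPM for other loci (quartiles 12.7 and 25.5). This value depended on length, with a median of 14.3 CPM for close loci of 401 to 414 nt and 63.3 CPM for those of 800 nt or longer. It is therefore not a density over covered bases, and the sets were not matched for length. A mean of 100 CPM or more was reached by 219 close loci (4.62%) and by 494 other loci (2.68%). Close loci were also detected more evenly, since 18.9% of them had 0 reads in at least 1 library, against 29.2% of other loci. Loci are not replicates, so these differences between sets of loci are descriptions without a test.

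Gaps were concentrated at short distances. Of the 23148 pairs of adjacent loci on these contigs, 2608 (11.3%) were separated by 1000 nt or less. A gap of up to 200 nt was found for 763 pairs, one over 200 and up to 400 nt for 585, over 400 and up to 600 nt for 499, over 600 and up to 800 nt for 400 and over 800 nt for 361. The smallest gap was 1 nt, in 5 pairs, and 421 pairs had a gap of 100 nt or less. The median gap of a close locus to its nearest neighbour was 374 nt. In steps of 50 nt the number of close loci went from 471 at gaps of up to 50 nt to 149 in the last step before 1000 nt. The step over 300 and up to 350 nt held 196 loci, fewer than the 284 of the step before and the 266 of the step after. The 1000 nt limit fell in no visible break of this distribution. Just inside it, Cluster_7675 and Cluster_7676 were separated by 1000 nt and had mean levels of 9.82 and 8.75 CPM. Just outside it, Cluster_12067 and Cluster_7773 had gaps wider by a single base and mean levels of 43.3 and 21.9 CPM. The 149 close loci in the last 50 nt before the limit had a median of 8.29 CPM, and the 128 loci in the first 50 nt beyond it had a median of 7.61 CPM.

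Chains of loci with gaps of 1000 nt or less were joined into runs, in which *MIRNA* loci were also allowed. There were 2154 runs with at least 1 close locus, of which 1805 (83.8%) held 2 loci, 279 held 3, 52 held 4, 8 held 5 and 7 held 6. Runs of 7, 8 and 9 loci occurred 1 time each. Runs of 3 or more loci numbered 349 and held 24.2% of the close loci. From end to end, runs covered 824 to 23494 nt, with a median of 1475 nt, and 28 were longer than 5000 nt. Loci inside runs of 3 or more had a median of 24.9 CPM per 1000 nt, against 22.0 for loci at the ends of such runs and 20.2 for loci in runs of 2. In runs of 2, the stronger locus held a median of 63.1% of the mean CPM of the run (quartiles 56.1% and 72.5%). It held 90% or more in 114 runs (6.32%). The split in pairs of unrelated loci was not computed, so these shares are not a trait of runs.

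**Figure D1:**
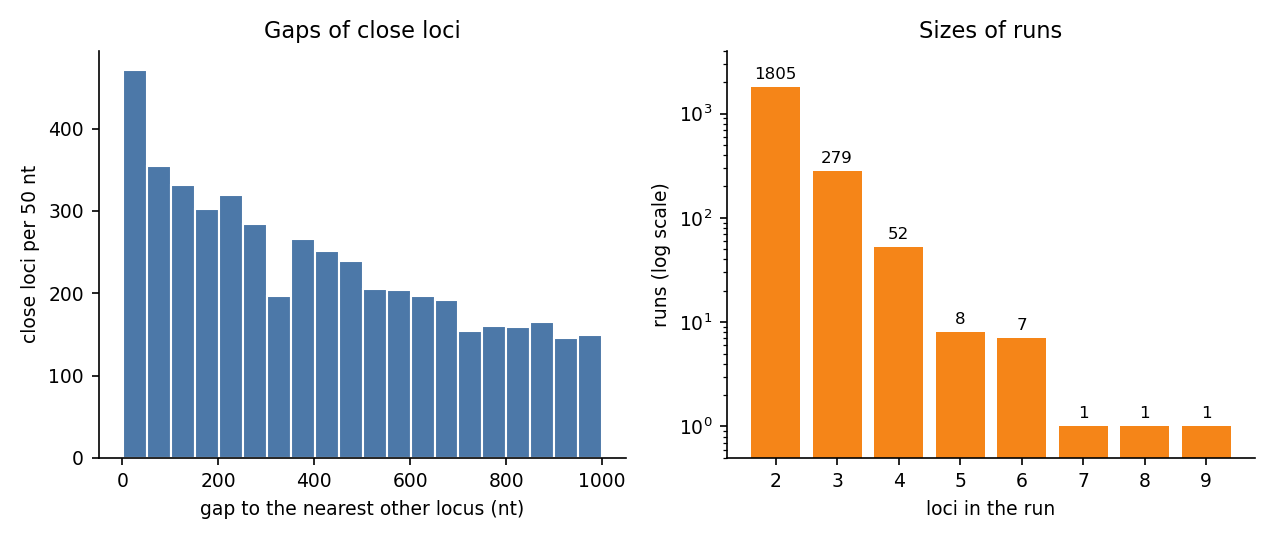
Left, number of close loci by the gap to the nearest other locus, in steps of 50 nt. Right, number of runs by the number of loci they hold, on a log scale with the count above each bar. Gaps were most frequent below 50 nt (471 loci), and 1805 of 2154 runs held 2 loci.

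Close loci lay largely outside annotated genes. Of the 4745, 595 (12.5%) overlapped a gene of the SHERM annotation, against 11.9% of other loci. Those outside genes had a median distance of 2650.5 nt to the nearest gene, against 3302 nt for other loci. Near genes the order was the other way, since 20.1% of close loci lay outside a gene but within 1000 nt of one, against 22.7% of other loci. Among runs, 369 (17.1%) had at least 1 locus on a gene, and in 173 of these every locus overlapped the same gene. The annotation gives these genes as protein-coding and names no function, so exons, introns and UTRs were not separated. On the 61 contigs with 100 or more loci, close loci made up 1.92% to 29.8% of the loci, with a median of 20.6%.

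The runs of 9, 8 and 7 loci, and the 2 of the 7 runs of 6 loci with the highest summed mean CPM, differed in position, in evenness and in how far their loci shared a profile over the libraries. The run of 9 loci, Cluster_24016 to Cluster_24024, lay at CACSLK010034598.1:13037941-13061434 of the SHERM assembly, 14524 nt from the nearest gene. Its loci, by their reported ends, took up 88.2% of a span of 23494 nt. Its summed level was 1670 and 1151 CPM in haustorium replicates 1 and 3, 1788 and 5178 CPM in stage 6 haustorium replicates 1 and 2, and 3145 and 2139 CPM in leaf replicates 1 and 2. Stage 6 haustorium lay above haustorium without a stage in both libraries, and leaf lay between the stage 6 haustorium libraries. After TMM the order of the haustorium groups was kept, with 1705 and 1892 CPM against 2141 and 2916 CPM, and leaf spanned 1807 to 3291 CPM. The most abundant of the 9 loci, Cluster_24021, was 3328 nt long with a mean of 771.0 CPM, and the weakest, Cluster_24018, was 460 nt long with a mean of 10.3 CPM. Neighbours within this run varied together over the 6 libraries, with Pearson r of log2(CPM + 1) from 0.62 to 0.98 (median 0.91 over 8 pairs) and a median of 0.82 after TMM.

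The run of 8 loci, Cluster_14950 to Cluster_14957, lay at CACSLK010027773.1:14009281-14015863. Of its loci, 4 overlapped SHERM_24979, SHERM_24980 or SHERM_24981, genes that lie side by side. Its summed level was 221 and 415 CPM in haustorium, 397 and 329 CPM in stage 6 haustorium and 411 and 223 CPM in leaf, in replicate order, so the groups overlapped. Cluster_14954, on SHERM_24981, held 67.8% of the mean CPM. On library totals its level was 168 to 317 CPM. The first locus of the run, Cluster_14950, ranged more widely, from 0.240 CPM (2 reads) in leaf replicate 2 to 16.2 CPM (110 reads) in haustorium replicate 3. After TMM the summed level of the run was 226 and 682 CPM in haustorium, 475 and 185 CPM in stage 6 haustorium and 236 and 343 CPM in leaf. The run was thus less steady after TMM than on library totals. Neighbours in this run shared little of their profile, with a median r of 0.23 over 7 pairs and 0.01 after TMM.

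All 7 loci of the run from Cluster_14044 to Cluster_14050, at CACSLK010027752.1:10905938-10911927, overlapped a single gene, SHERM_23817. The summed level was 114 and 85.4 CPM in haustorium, 144 and 412 CPM in stage 6 haustorium and 305 and 147 CPM in leaf. Both stage 6 groups lay above haustorium without a stage and overlapped each other. After TMM the ranges narrowed to 116 to 140 CPM, 172 to 232 CPM and 175 to 226 CPM. The median r of its neighbours was 0.72 over 6 pairs on CPM but 0.15 after TMM.

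The run from Cluster_20647 to Cluster_20652, of 6 loci at CACSLK010030444.1:36161-44203, was dominated by a single locus. Cluster_20649, 1026 nt long and 1661 nt from the gene SHERM_04538, held 79.9% of its mean CPM. This locus reached 1866 and 1277 CPM in haustorium, 404 and 8437 CPM in stage 6 haustorium, and 18369 and 40.6 CPM in leaf. Its libraries thus differed more within stage 6 haustorium and within leaf than between the groups. Cluster_20652, at the other end of the run and on SHERM_04539, was also uneven, with 708 and 44.0 CPM in haustorium, 3.30 and 413 CPM in stage 6 haustorium and 418 and 6.72 CPM in leaf. In contrast, Cluster_20651, only 5 nt away from it, stayed between 281 and 909 CPM in all 6 libraries. The median r of neighbours was 0.59 over 5 pairs and -0.36 after TMM.

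The run from Cluster_4403 to Cluster_4408, of 6 loci at CACSLK010011313.1:1834753-1843023 and 11153 nt from a gene, was highest in stage 6 haustorium. Its summed level was 231 and 88.0 CPM in haustorium, 681 and 1036 CPM in stage 6 haustorium, and 227 and 298 CPM in leaf. Both stage 6 haustorium libraries lay above the other 4, on CPM and after TMM (583 and 816 CPM against 131 to 458 CPM). The run was singled out for this order after its values were seen, and none of its loci passed the edgeR test. The strongest locus, Cluster_4408, had 125 and 54.0 CPM in haustorium, 362 and 516 CPM in stage 6 haustorium and 156 and 142 CPM in leaf. The weakest, Cluster_4407, had 6.20 and 1.77 CPM, 23.4 and 26.2 CPM, and 8.44 and 5.16 CPM in the same order. These loci differed in level but kept the same order of groups, and the median r of neighbours was 0.92 over 5 pairs both on CPM and after TMM.

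**Figure D2:**
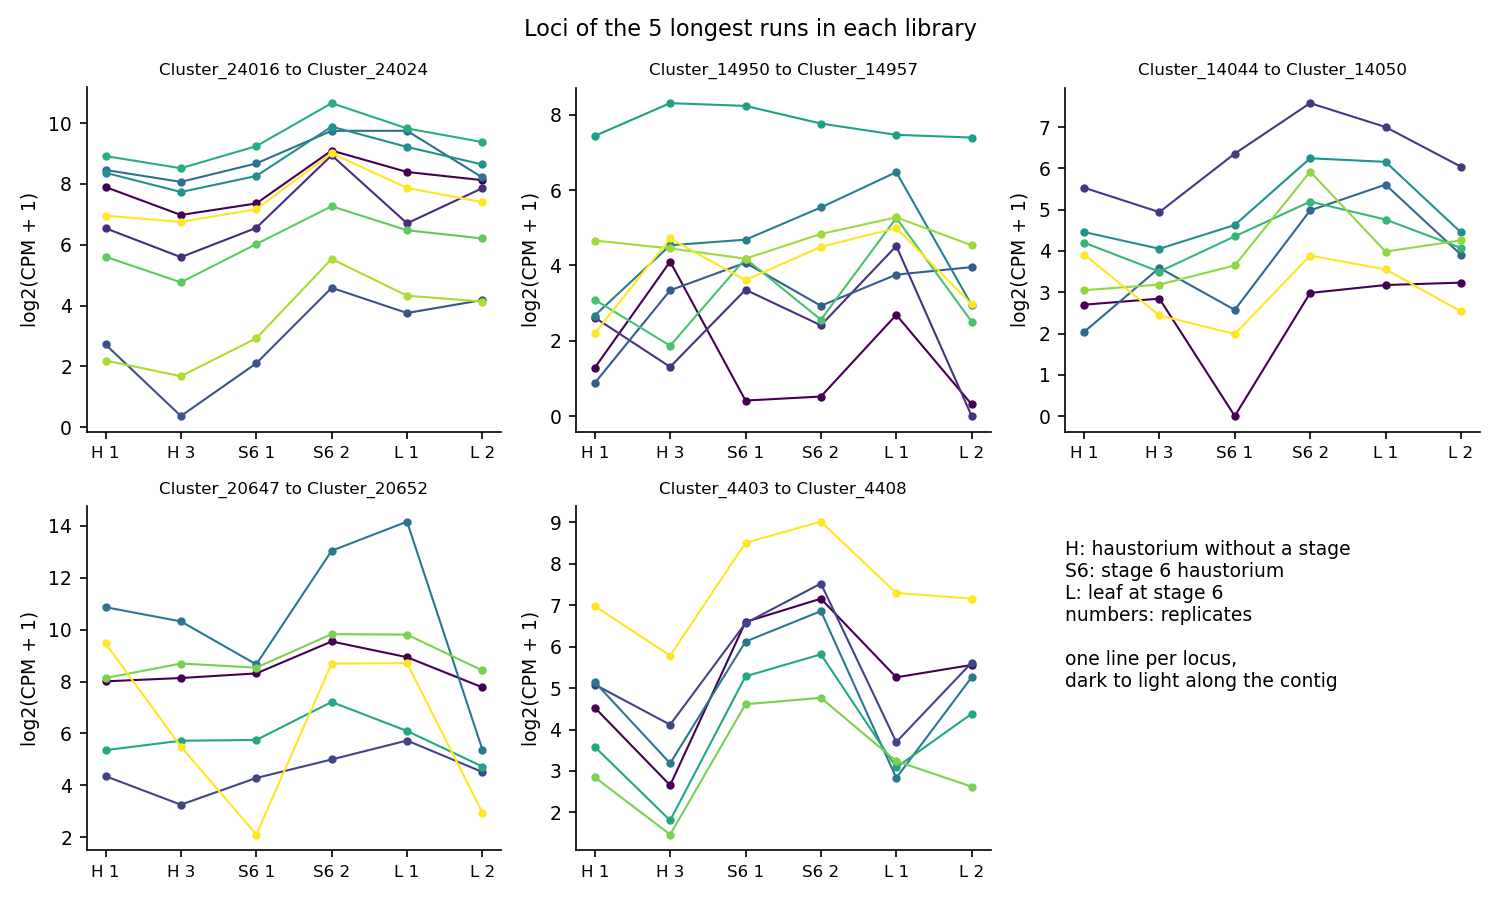
Level of each locus of the runs of 9, 8 and 7 loci and of the 2 most abundant runs of 6 loci, in each of the 6 libraries, as log2(CPM + 1), with 1 line per locus coloured from dark to light along the contig. The lines run in parallel in the runs Cluster_24016 to Cluster_24024 and Cluster_4403 to Cluster_4408 (median r of neighbours 0.91 and 0.92), and cross in Cluster_14950 to Cluster_14957 (0.23).

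Reads were concentrated in few close loci. The 10 most abundant held 19.5% to 49.7% of the reads of all close loci, depending on the library, and 2 of them were among the 10 most abundant of all loci. Cluster_4659, 510 nt long at CACSLK010011356.1:2686028-2686537 and 4494 nt from a gene, was the most abundant, with 14080 and 21756 CPM in haustorium, 12945 and 14848 CPM in stage 6 haustorium and 4358 and 27409 CPM in leaf. The leaf replicates enclosed all other libraries, so tissue and replicate could not be separated for this locus. Its neighbour at 57 nt, Cluster_4660, had between 1.80 and 23.7 CPM. Cluster_997, 1015 nt long and 472 nt from the gene SHERM_10197, had 16533 and 15666 CPM in haustorium, 9970 and 10649 CPM in stage 6 haustorium and 5548 and 15863 CPM in leaf. Haustorium without a stage lay above stage 6 haustorium in both libraries. Leaf overlapped the other groups.

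Of the 10, 3 lay in a single run, Cluster_13892 to Cluster_13895, on neighbouring genes of contig CACSLK010027752.1. Cluster_13893, 4010 nt long over SHERM_23655, had 11601 and 14381 CPM in haustorium, 8061 and 2123 CPM in stage 6 haustorium and 3548 and 7584 CPM in leaf. Cluster_13894, 9 nt further on and over SHERM_23656, had 5834 and 7709 CPM, 5094 and 2019 CPM, and 2024 and 4014 CPM in the same order. On CPM both were highest in haustorium without a stage, and stage 6 haustorium replicate 2 and leaf replicate 1 held the lowest values. After TMM Cluster_13894 overlapped between the groups, with 5958 CPM in haustorium replicate 1 against 6100 CPM in stage 6 haustorium replicate 1 and 6177 CPM in leaf replicate 2. Their r was 0.97 on CPM and 0.99 after TMM. Cluster_13895, 136 nt beyond and over SHERM_23657, had 6265 and 5446 CPM, 3704 and 2809 CPM, and 5650 and 2318 CPM. On CPM its order of the leaf replicates was opposite to that of Cluster_13894, and r between them was 0.31. After TMM both were higher in leaf replicate 2, with 3246 and 3566 CPM in leaf for Cluster_13895, and r was 0.85. The first locus of the run, Cluster_13892, had at most 20.8 CPM.

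Cluster_13886, 3446 nt long over SHERM_23651 on the same contig, had 9942 and 9293 CPM in haustorium, 6194 and 3915 CPM in stage 6 haustorium and 6530 and 5962 CPM in leaf. Both haustorium libraries without a stage lay above the other 4. The remaining abundant loci were short. Cluster_23903 (472 nt) overlapped SHERM_07796 and had 7862 and 13785 CPM, 10040 and 1972 CPM, and 1273 and 9627 CPM in haustorium, stage 6 haustorium and leaf. Cluster_15163 (473 nt) had 4683 and 4364 CPM, 3505 and 2925 CPM, and 5219 and 5186 CPM, and Cluster_19483 (473 nt) had 1326 and 4952 CPM, 3586 and 2465 CPM, and 977 and 7378 CPM. Leaf lay above stage 6 haustorium in both libraries only for Cluster_15163 among these 3 loci, and after TMM its leaf libraries (2999 and 7980 CPM) overlapped stage 6 haustorium (4197 and 1647 CPM).

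Most of the short abundant loci had nearly the same length, a pattern looked at after the values were seen. Of the 61 close loci with a mean of 500 CPM or more, 43 were 800 nt or longer, and of the 18 shorter ones 13 lay within 5 nt of their median length of 473 nt. The length class of 468 to 478 nt was set around that median. A high share of abundant close loci in it was therefore partly built in. The class held 103 close loci (2.17%) and 15.9% of the summed mean CPM, and 28 of its loci (27.2%) reached 100 CPM. By comparison, 3 of the 1655 close loci within 5 nt of 420 nt (0.181%) did so. The share was 1.47% at 426 to 467 nt, 2.49% at 479 to 799 nt and 41.1% at 800 nt or longer. Other loci showed the same, since 88 of the 332 with lengths of 468 to 478 nt (26.5%) reached 100 CPM. Close loci of this length class held 3.75% and 4.99% of all counted reads in haustorium, 3.71% and 1.90% in stage 6 haustorium and 1.77% and 5.27% in leaf. The lowest shares were those of stage 6 haustorium replicate 2 and leaf replicate 1. Close loci of 800 nt or longer differed between these libraries in the other direction, with 11.1% and 9.03%, 10.5% and 14.6%, and 13.7% and 10.2% of all counted reads, and the same libraries held the highest shares.

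**Figure D3:**
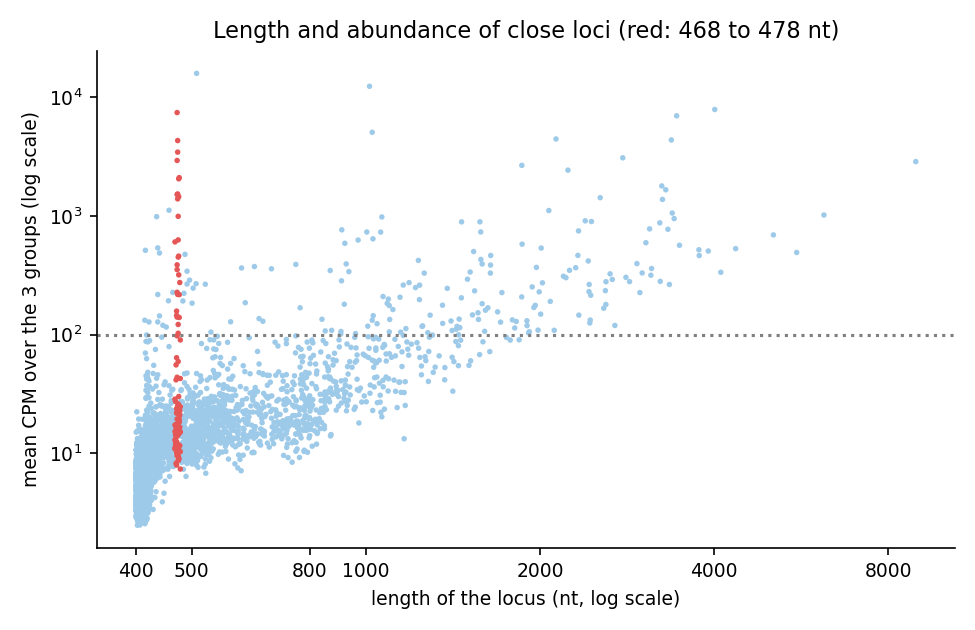
Mean CPM over the 3 groups (log scale) against length (nt, log scale) for each of the 4745 close loci, with loci of 468 to 478 nt in red and a dotted line at 100 CPM. Above the line, 28 loci stand in the narrow red column and 156 loci are 800 nt or longer.

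Neighbouring close loci varied together over the libraries more than close loci on different contigs did. For each pair of adjacent loci without a *MIRNA* mark and with a gap of 1000 nt or less, Pearson r of log2(CPM + 1) was computed over the 6 libraries. The 2591 pairs had a median r of 0.59 (quartiles 0.24 and 0.81), 15.5% of them had an r below 0 and 11.5% an r over 0.9. In place of pairs drawn at random, every pair of close loci on different contigs was used. These 10958786 pairs had a median r of 0.46, with 19.8% below 0 and 4.58% over 0.9. All pairs share the same 6 libraries and their totals, and r over 6 libraries is imprecise for a single pair, so these values are descriptions without a test. After TMM the medians were 0.21 for close pairs and 0.03 for pairs on different contigs. The library of highest CPM was the same for 43.3% of close pairs and for 35.9% of pairs on different contigs, and after TMM for 24.7% and 16.8%. ShortStack places reads with several matching positions using the unique reads around them, and the part of that step in the likeness of neighbours was not tested.

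The likeness of neighbours was graded by distance. The median r was 0.64 for gaps of up to 100 nt, 0.65 above that and up to 200 nt, 0.60 up to 400 nt, 0.56 up to 600 nt, 0.55 up to 800 nt and 0.54 up to 1000 nt, each step starting where the one before it ended. Beyond the limit, where other loci enter the pairs, it was 0.49 for adjacent loci up to 2000 nt apart and 0.43 up to 10000 nt. Up to 100000 nt it was 0.38, and at wider gaps 0.16 over 1694 pairs. At 1000 nt the gap steps widen and other loci enter the pairs. These medians therefore cannot tell whether likeness changed sharply at the limit. Beyond 2000 nt these medians on library totals lay below the 0.46 of close loci on different contigs, a set that holds no other loci. Levels went along with distance, because the weaker locus of a pair had a median of 7.74 CPM at gaps of up to 100 nt and of 6.24 CPM at gaps over 1000 and up to 2000 nt. Among pairs in which both loci had a mean of 10 CPM or more, the medians were higher throughout, with 0.85 at up to 100 nt and 0.64 over 800 and up to 1000 nt. For these 670 pairs the median r over all gaps up to 1000 nt was 0.78, against 0.52 for such loci on different contigs, and after TMM 0.48 against 0.03. In 450 triples of consecutive loci, the next but one locus was as like the first (median r 0.64) as adjacent loci were (0.62).

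**Figure D4:**
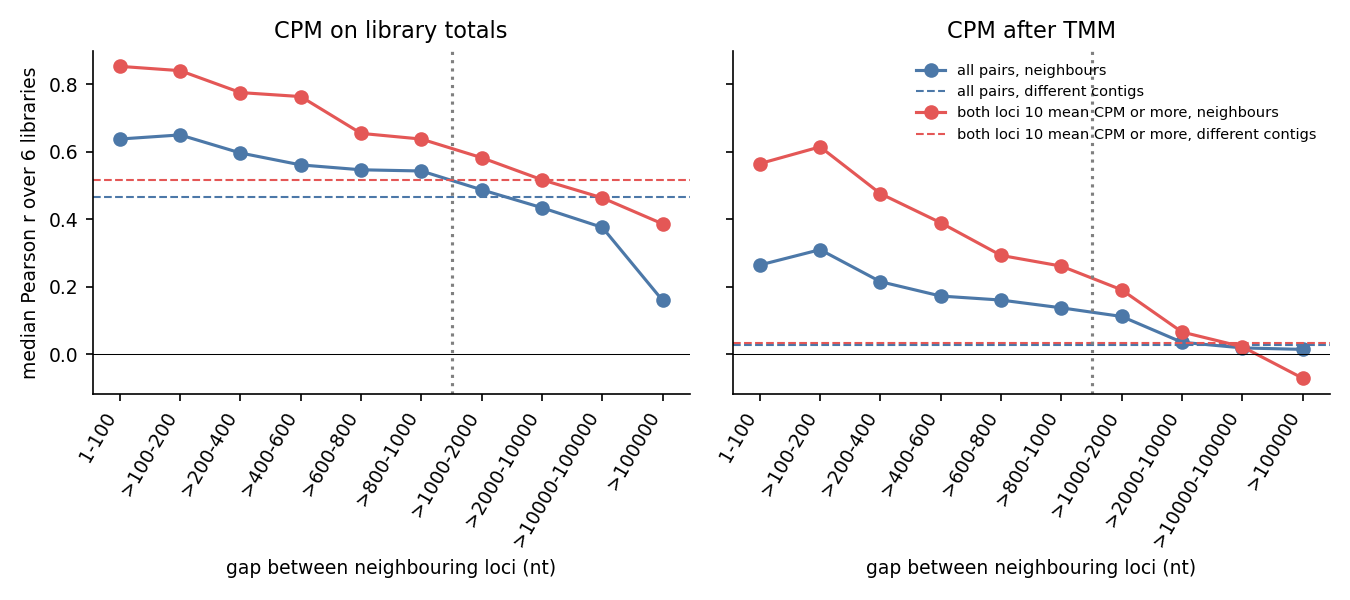
Median Pearson r of log2(CPM + 1) over the 6 libraries for adjacent loci, by the gap between them in nt (points), on CPM from library totals (left) and after TMM (right). Dashed lines give the median for every pair of close loci on different contigs, blue stands for all pairs, red for pairs with both loci at 10 mean CPM or more, and the dotted line marks 1000 nt. Median r was 0.64 at gaps of up to 100 nt and 0.49 over 1000 and up to 2000 nt for all pairs.

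In pairs at the upper end of the range, both loci were high and low in the same libraries. Cluster_20573 and Cluster_20574, 385 nt apart, had the highest r (0.997). The first had 7.99 and 10.9 CPM in haustorium, 56.4 and 97.7 CPM in stage 6 haustorium and 51.3 and 37.3 CPM in leaf, and the second had 14.7 and 22.7 CPM, 101 and 151 CPM, and 82.2 and 60.1 CPM. Both loci were lower in haustorium without a stage than in the other 4 libraries. Cluster_23936 and Cluster_23937, 55 nt apart (r 0.990), showed the same order at a wider range, from 0.358 to 51.7 CPM and from 1.67 to 135 CPM, with both lowest values in haustorium replicate 1 and both highest in leaf replicate 1. Cluster_17527 and Cluster_17528 (r 0.995, gap 223 nt) and Cluster_9609 and Cluster_9610 (r 0.992, gap 362 nt, both on SHERM_19041) were highest in stage 6 haustorium replicate 2. Cluster_8894 and Cluster_8895 (r 0.991, gap 393 nt) both had 0 reads in stage 6 haustorium replicate 1 and their highest levels, 42.7 and 57.7 CPM, in stage 6 haustorium replicate 2. Since the pairs were chosen for their r, these values are a description.

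At the lower end, 4 of the 5 pairs joined an abundant locus of 472 to 476 nt to a weak neighbour. Cluster_11446 (476 nt) had 1681 and 4376 CPM in haustorium, 2040 and 443 CPM in stage 6 haustorium and 430 and 3633 CPM in leaf. Cluster_11447, 503 nt away, had 14.2 and 10.01 CPM, 12.2 and 23.7 CPM, and 21.0 and 6.12 CPM. The abundant locus was lowest, and the weak one highest, in stage 6 haustorium replicate 2 and leaf replicate 1, which gave an r of -0.92. After TMM r was 0.08, so the opposition was present on library totals and not after TMM. The pairs Cluster_20383 and Cluster_20384 (r -0.89, 0.08 after TMM) and Cluster_1460 and Cluster_1461 (r -0.88, -0.13 after TMM) had the same form, and Cluster_4978 and Cluster_4979 (r -0.84) kept an r of -0.42 after TMM. The lowest r, -0.95, belonged to 2 weak loci on SHERM_07419, 392 nt apart. Cluster_23458 had 11.8 and 29.3 CPM in haustorium, 13.2 and 0.288 CPM in stage 6 haustorium, and 0 and 10.2 CPM in leaf. Cluster_23459 had 10.4 and 8.39 CPM, 7.59 and 28.0 CPM, and 30.8 and 7.32 CPM. They were opposed also after TMM (r -0.69), and the 2 libraries in which they were opposed are the ones that stood apart.

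Close loci beside a *MIRNA* locus were few, and their levels were near those of close loci in general (median 9.19 CPM). There were 16 runs with a *MIRNA* locus, which held 19 close loci, and 13 close loci met the rule only through their *MIRNA* neighbour. In 14 of the 16 adjacent pairs the *MIRNA* locus had the higher mean CPM, with a median of 59.6 CPM (8.18 to 372.9) against 9.03 CPM (4.13 to 29.2) for its neighbour. The median r of these pairs was 0.42, from -0.58 to 0.83, and 0.08 after TMM. The strongest *MIRNA* locus among them, Cluster_11214, had 380 and 99.5 CPM in haustorium, 431 and 47.8 CPM in stage 6 haustorium and 1206 and 73.2 CPM in leaf. Its neighbour at 460 nt, Cluster_11213, had 3.22 and 13.5 CPM, 3.96 and 0 CPM, and 0 and 4.08 CPM, and the r of this pair was -0.22. The exceptions to the order were Cluster_12242 and Cluster_15789, *MIRNA* loci of 8.18 and 17.8 CPM beside close loci of 9.27 and 19.2 CPM. These pairs also had the highest r among the 16, of 0.821 and 0.827.

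Of the other close loci beside a *MIRNA* locus, the strongest was Cluster_18879, 775 nt long and 394 nt from Cluster_18880. It had 26.2 and 13.8 CPM in haustorium, 24.4 and 34.8 CPM in stage 6 haustorium and 53.6 and 22.3 CPM in leaf. Its *MIRNA* neighbour had 5.49 and 16.6 CPM, 43.2 and 35.0 CPM, and 243 and 26.3 CPM, so both were highest in leaf replicate 1. Cluster_11924, which lies with *MIRNA* locus Cluster_11925 on SHERM_21683, had 5.73 and 27.5 CPM in haustorium, 0 and 0.288 CPM in stage 6 haustorium and 29.1 and 0 CPM in leaf. Its *MIRNA* neighbour stayed between 84.5 and 181 CPM. The remaining close loci of runs with a *MIRNA* locus had mean levels of 3.16 to 10.3 CPM. They included Cluster_12133, Cluster_15791 and Cluster_20549, which were separated from the *MIRNA* locus of their run by another close locus. The others were Cluster_3955, Cluster_5866, Cluster_12134, Cluster_12305, Cluster_12334, Cluster_14354, Cluster_16934, Cluster_18555, Cluster_20548, Cluster_20957 and Cluster_21606. Most of the latter lay beside *MIRNA* loci that were several times stronger, such as Cluster_16934 (6.43 CPM) beside Cluster_16935 (107 CPM), the pair with the lowest r of the 16.

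As a whole, close loci took similar shares of the libraries in all tissues. They held 21.2% and 19.8% of the counted reads in haustorium, 20.2% and 26.7% in stage 6 haustorium and 24.1% and 22.4% in leaf. The group means were 20.5% ± 0.979, 23.5% ± 4.62 and 23.2% ± 1.22 (SD, n = 2 each), and the spread of stage 6 haustorium covered both other means. The median close locus had 7.64 and 4.12 CPM in haustorium, 6.27 and 15.8 CPM in stage 6 haustorium and 14.8 and 5.04 CPM in leaf. It lay above the median of other loci in 6 of 6 libraries, which was 6.56 and 3.68 CPM, 4.62 and 11.8 CPM, and 12.1 and 3.96 CPM. On library totals, highest levels gathered in the libraries that stood apart. Stage 6 haustorium replicate 2 was highest for 46.1% of close loci and leaf replicate 1 for 37.2%. Other loci were highest there in 37.8% and 38.1% of cases. The medians are also on library totals. TMM scales these libraries down (factors 1.78 and 1.74) and the others up (0.609 to 0.979). Differences in level between libraries therefore hold composition, and these medians and shares are not given after TMM.

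**Figure D5:**
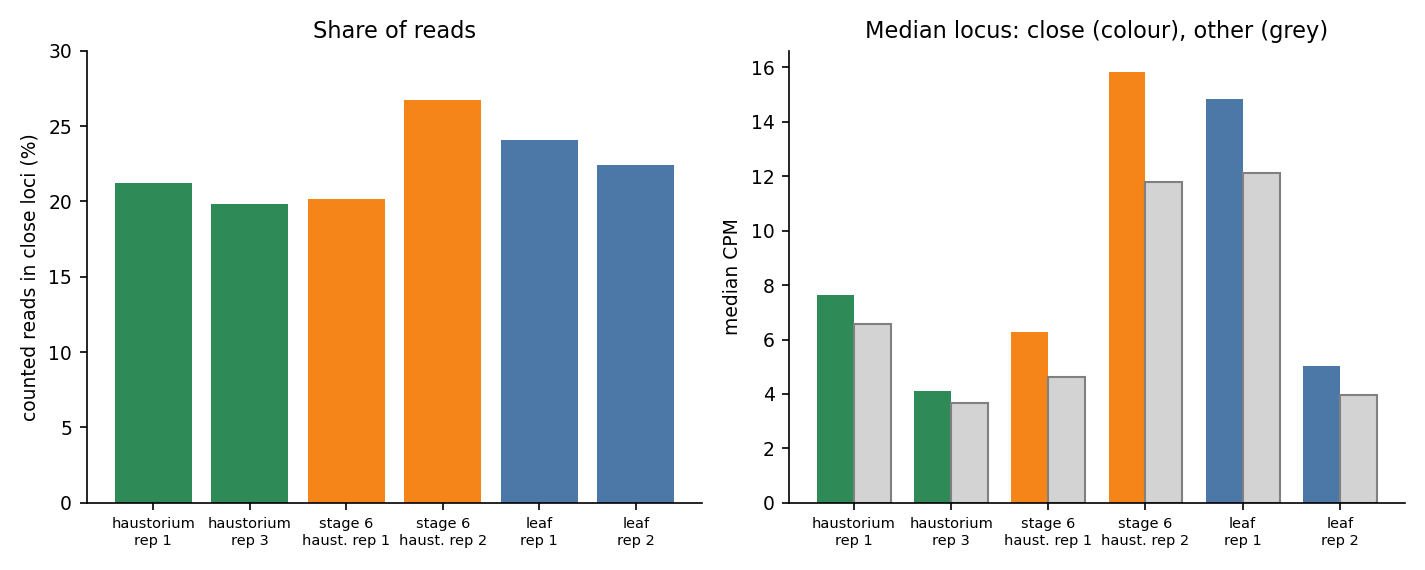
Left, share of the counted reads of each library that fell in close loci (%). Right, median CPM, on library totals, of close loci (coloured bars) and of other loci (grey bars) in each library. The share lay between 19.8% and 26.7%, and the median close locus was above the median other locus in 6 of 6 libraries.

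No close locus passed the test between tissues or between haustorium groups. The edgeR quasi-likelihood test was fitted on the counts of all loci with TMM, and with Benjamini-Hochberg adjustment over the 24421 loci that passed a filter on low counts. Of the close loci, 4690 were tested and 55 were not. At an adjusted p of 0.05, 0 loci were called in leaf against stage 6 haustorium, in stage 6 haustorium against haustorium without a stage, and in leaf against both haustorium groups, which is 0% of all loci tested in each. These contrasts share libraries and are not independent. At an unadjusted p of 0.05, 69 close loci (1.47%) passed between leaf and stage 6 haustorium, beside 2.00% of all loci. In the other contrasts, in the order given, 186 (3.97%) and 136 (2.90%) did so, beside 4.39% and 3.25%. The shares of close loci were thus no larger than those of all loci. The spread between replicates was wide, with a common biological coefficient of variation of 1.00 and medians of 0.778 for close loci and 0.849 for all loci. DESeq2, the alternative tool, called 18, 71 and 34 of the 4745 close loci. In leaf against stage 6 haustorium 8 were higher and 10 lower, and in the haustorium contrast 46 were higher and 25 lower. In leaf against both haustorium groups 18 were higher and 16 lower. Of all 25056 loci it called 116 (0.463%), 383 (1.53%) and 204 (0.814%). None of these calls was shared by edgeR, which called 0.

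The direction of the differences was examined without a test. The median log2 fold change of close loci was -0.01 in leaf against stage 6 haustorium, beside 0.05 for all loci. It was 0.18 in stage 6 haustorium against haustorium without a stage, beside 0.02 for all loci, and 0.13 in leaf against both haustorium groups, beside 0.12. The median fold change of close loci in the haustorium contrast became negative (-0.06) without stage 6 haustorium replicate 2, but the distance to all loci was then 0.22. Over all alternatives that distance was 0.09 to 0.23 (log2). Both stage 6 haustorium libraries lay above both other haustorium libraries after TMM for 1064 close loci (22.4%), beside 17.9% of all loci, and below them for 578 (12.2%), beside 16.9%. Between leaf and stage 6 haustorium, 520 close loci (11.0%) were higher in both leaf libraries and 607 (12.8%) lower, beside 12.4% and 11.5% of all loci. Scaling to library totals alone, which puts the median of all loci at 0.74 in the haustorium contrast, gave 1488 close loci higher at stage 6 (31.4%) and 216 lower (4.55%), beside 25.7% and 8.98% of all loci. For leaf against stage 6 haustorium it gave 151 higher (3.18%) and 450 lower (9.48%), beside 4.76% and 8.55% of all loci.

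None of the 10 most abundant close loci passed the edgeR test in any contrast, with 3 residual degrees of freedom. In leaf against stage 6 haustorium their log2 fold changes were 0.02 to 1.07, with standard errors of 1.06 to 2.14 and an edgeR adjusted p of 1 for each. In stage 6 haustorium against haustorium without a stage they were -1.71 to 0.39, with 9 of 10 below 0 and standard errors of 1.08 to 2.13. Of these, 3 were larger than their standard errors, those of Cluster_13893 (-1.71, SE 1.60), Cluster_13886 (-1.40, SE 1.24) and Cluster_13895 (-1.35, SE 1.08), each with an edgeR adjusted p of 0.999. In leaf against both haustorium groups they were -0.66 to 1.21, with standard errors of 0.938 to 1.78. For 9 of the 10, all but Cluster_15163, the sign in leaf against stage 6 haustorium changed when a single library was left out. For Cluster_20649 the value was 1.02 (SE 2.14) in leaf against stage 6 haustorium and -5.39 without leaf replicate 1.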

How the data were processed

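Small RNA libraries of haustorium and leaf were trimmed of 3' adapters by the authors. They annotated loci with ShortStack (version 4.0.4, default settings) against the SHERM assembly and, for each library, deposited a table of raw read counts by locus, which also gives positions and a *MIRNA* mark. The paper and the series description name different Illumina sequencers. The counts were used as deposited. Depth was 3031863 to 8381235 counted reads per library. Read floors reflect counting error alone, and whether duplicate PCR products were counted as separate reads is not stated.

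Gaps and runs were computed from the coordinates. CPM used library totals, or library totals multiplied by TMM factors where stated, and r used a pseudocount of 1 CPM. Differences between the 3 groups were tested by quasi-likelihood in edgeR 4.0.16 (R 4.3.3) with TMM factors and the filterByExpr filter, which left 3 residual degrees of freedom, and DESeq2 1.42.0 was an alternative. The scripts were tested on simulated data. Gene positions came from 29520 annotated genes of the same assembly, and were joined to loci by position. Sequences of the loci were not analysed here.

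The loci named were the 10 most abundant close loci, the 5 runs with the most loci (ties taken by the higher summed mean CPM), the 5 highest and 5 lowest r among pairs with both loci at 10 mean CPM or more, close loci in runs with a *MIRNA* locus, 2 loci on each side of the limit, and any called by edgeR. The members, lists and tests were chosen with earlier results of these data known. Alternatives were other normalizations, filters, gap limits and pseudocounts, a replicate block, runs counted as single loci, and leaving out each library. Python 3.11.15, pandas 2.3.3, numpy 2.4.6 and matplotlib 3.10.9 were used.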

Additional observations from a re-analysis of the deposited data

How the results depend on the processing

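Calls of close loci by edgeR were 0 in each contrast under every alternative fit with that tool, the leave-one-out fits included (range 0 to 0, where a lone library was assumed to vary like the other groups). DESeq2 called 18, 71 and 34 of the 4745 close loci, beside 116, 383 and 204 of all 25056 loci. The order is leaf against stage 6 haustorium, stage 6 haustorium against haustorium without a stage, and leaf against both haustorium groups. The cause of the difference from edgeR was not tested. Stage 6 libraries of the same number did not deviate together (correlation -0.14), so the replicate block was only an alternative. It called 0 close loci in each contrast, and the crossed replicate block, added after seeing the data, also called 0.

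In the same order of contrasts, the median log2 fold change of close loci moved to -0.20, 0.94 and 0.28 with library totals only, and ranged from -0.16 to 0.18, from -0.060 to 0.42 and from -0.017 to 0.26 when each library was left out. Without both libraries that stand apart, an alternative added after seeing the data, it was -0.049 in the haustorium contrast. Less the median of all loci, it was -0.064, 0.17 and 0.0013 in the reported fit and ranged from -0.14 to 0.034, from 0.14 to 0.22 and from -0.062 to 0.088 when each library was left out. Without both libraries that stand apart it was 0.041, 0.23 and 0.10. With loci of 10 counts in every library it was -0.015 and 0.090 in the first 2 contrasts, and with the replicate block 0.11 and -0.049 in the last 2.

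A gap limit of 500 nt gave 3015 close loci in 1401 runs, and their shares of reads were 16.7%, 18.0% and 18.2% in haustorium, stage 6 haustorium and leaf. A limit of 2000 nt gave shares of 30.0%, 32.3% and 31.9%. With contigs of 2 or more loci the shares were 23.0% in haustorium and 25.3% in leaf, and without the 10 most abundant loci 22.1% in haustorium. With any 1 library left out, the shares were 19.8% to 21.2% in haustorium, 20.2% to 26.7% in stage 6 haustorium and 22.4% to 24.1% in leaf.

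The median r of close pairs exceeded that of pairs on different contigs under every alternative, by 0.10 to 0.44 (0.12 in the reported setting, 0.10 to 0.14 when each library was left out), and a move of 0.05 or more is listed here. With TMM the medians were 0.21 and 0.025 (difference 0.18), with both loci at 10 mean CPM or more 0.78 and 0.52 (difference 0.26), and with both 0.48 and 0.032 (difference 0.44, added after seeing the data). Deviations from group means gave 0.68 and 0.56 on library totals, and 0.25 and 0.023 after TMM. With 2 libraries a group, the deviations within a group mirror each other, so this r rests on fewer free values than the others. Without both libraries that stand apart the medians were 0.34 and 0.15 (difference 0.19). With any 1 library left out they were 0.53 to 0.66 and 0.39 to 0.54.

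Of the named loci in leaf against stage 6 haustorium, the log2 fold change changed sign with the replicate block for Cluster_4659 (-0.15), Cluster_23903 (-0.15) and Cluster_20649 (-0.90), and with the crossed replicate block for the same loci (-0.15, -0.15 and -0.90). It did so with library totals only for Cluster_23903 (-0.14) and Cluster_13894 (-0.24), for Cluster_13894 with DESeq2 (-0.0028) and RLE size factors (-0.0043), and without both libraries that stand apart for Cluster_20649 (-2.96) and Cluster_13895 (-0.32). When each library was left out, values ranged from -2.26 to 1.82 for Cluster_4659, from -1.50 to 1.44 for Cluster_997, from -1.42 to 2.52 for Cluster_13893, from -3.18 to 2.81 for Cluster_23903, from -0.37 to 1.55 for Cluster_13886, from -5.39 to 3.45 for Cluster_20649, from -1.65 to 1.69 for Cluster_13894, from -0.38 to 1.10 for Cluster_13895 and from -2.35 to 2.10 for Cluster_19483. None of these values passed the test. Shallow depth limits single weak loci, since 10 reads in every library were reached by 52.2% of close loci.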

Other observations

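A further 150 loci without a *MIRNA* mark had a neighbour at 1000 nt or less but lay on contigs with fewer than 6 loci, so that 4895 such loci were found over all contigs.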
